A study of Mus musculus with 18 samples.

Results

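GW3965, a synthetic agonist of the liver X receptors (LXR), was given to mouse embryonic stem (ES) cells and to neural cultures made from them, and each gene's response at day 17 of differentiation was set against its response in the stem cells. The measure is a difference of log2 ratios: treated over untreated cultures at day 17, minus treated over control ES cells. A positive difference is a larger rise or a smaller fall at day 17, and a negative one a smaller rise or a larger fall. The groups were chosen by their labels, which give 8 of the 18 libraries, 2 in each of 4 groups. All 23420 gene rows entered, 17166 of them with enough reads to be tested.

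Every library came from wild type E14 mouse ES cells, a line grown without feeder cells. The ES groups were a control and cells given GW3965 for 24 h. The day 17 groups, without and with GW3965, had been aggregated into embryoid bodies (floating cell clusters), exposed to 5 µM all-trans retinoic acid during 4 days of neural induction, and plated on laminin and poly-ornithine in N2 medium. Both day 17 groups therefore carried the retinoic acid step, and neither ES group did. GW3965 was used at 1 µM, and the protocol gives dimethylsulfoxide as vehicle. The labels state no duration for GW3965 at day 17, and the 24 h used here for that group rests on the names of the deposited files. The labels do not say whether the libraries of a group came from separate cultures, so p-values may measure only technical spread.

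The deposited labels call all samples embryonic stem cells, and the day 17 libraries did not carry that pattern. Over 20 pluripotency genes the summed level was 3512 to 3888 CPM (a gene's counts per 1 M gene counts of its library, with library sizes scaled by the trimmed mean of M values) in the ES libraries and 318 to 372 CPM in the day 17 libraries. Over 20 pan-neuronal genes it was 707 to 803 CPM in ES cells and 2740 to 3078 CPM at day 17. Astrocyte genes summed to 914 to 949.5 CPM in ES cells and 2601 to 3968 CPM at day 17, and mesenchyme and fibroblast genes to 2176 to 2342 CPM and 9916 CPM or more. Of 10 microglia and blood genes 3 could be tested, with sums of 1.19 to 1.84 CPM in ES cells and 1.07 to 1.51 CPM at day 17. The day 17 cultures were thus mixed in markers, and in such bulk samples fewer cells of a type and less RNA per cell cannot be told apart. The 8 libraries held 16.75 to 44.79 M gene counts and 17407 to 18398 genes with a count. In the 4 day 17 libraries 31.84 to 33.53% of reads had more than 1 alignment in the files' summary rows, against 0 in all other libraries, and what part this has in the results was not tested.

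The untreated day 17 libraries stood apart from untreated libraries taken 1 day earlier. Between untreated day 17 and untreated day 16, 9654 genes differed at an adjusted p below 0.05 (4593 higher and 5061 lower at day 17). Between treated day 17 and untreated day 16, 9067 did. Every day 17 response below is taken against the untreated day 17 libraries, so what sets these apart and the response to GW3965 cannot be told apart for genes that differ between days. Counts with untreated day 16 as the reference in place of untreated day 17 are therefore given beside the gene groups (written "against day 16"). That reference is confounded too. It sets treated day 17 against an earlier day, so ligand and day cannot be told apart in it. Of its libraries only those of day 17 list reads with more than 1 alignment. Under that reference 6605 of 17166 genes differed in response from ES cells, 2937 positive and 3668 negative. Counts against day 16 below are to be read against these totals, which exceed those of the main test. Of the main 3131 calls 1131 (36.1%) were called with the same sign and 597 with the opposite sign.

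LXR are nuclear receptors that sense oxysterols and bind DNA as partners of the retinoid X receptors. Their targets move cholesterol out of cells (Abca1, Abcg1), limit lipoprotein uptake (Mylip) and switch on fatty acid synthesis through Srebf1. The SREBP proteins work in the other direction for sterols: when membrane sterol is low they raise the genes of cholesterol synthesis and uptake, and INSIG1 holds them back. In the brain, neurons and astrocytes make their own cholesterol, and ABCA1 and APOE carry it between cells.

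The promoters of 5 genes named in the results are shown from 250 bases before to 50 bases after the transcript start (RefSeq, GRCm38.p6). They are read 5′ to 3′ on the gene's strand. All but Abca1 hold an element within the mismatches allowed. These promoters thus do not represent their gene groups, in which most windows hold none. They were searched on both strands for 3 elements: the LXR element DR4 (AGGTCA repeated after 4 bases, up to 2 mismatches in 12 bases), the sterol regulatory element SRE (up to 1 mismatch in 10 bases), and the cyclic AMP response element CRE (TGACGTCA, exact). Over all 32851 promoter windows 3.02% held a DR4, 1.95% an SRE and 1.79% a CRE. Capitals mark the element, or in Abca1 the closest match to a DR4. Abca1, whose response differed most among expressed lipid genes, lies at chr4:53159846-53160145 on the minus strand, and its closest DR4 has 3 mismatches, 1 more than the search allowed. Acsl3 lies at chr1:78657575-78657874 (plus strand) and holds a DR4. Hmgcs1 at chr13:119690101-119690400 and Nsdhl at chrX:72918271-72918570, both on the plus strand, each hold an SRE. They are the only 2 of 16 cholesterol synthesis genes with a window that do. Dusp1 at chr17:26508423-26508722 (minus strand) is 1 of 8 immediate early genes with a window and the only one of them with a CRE.
Abca1: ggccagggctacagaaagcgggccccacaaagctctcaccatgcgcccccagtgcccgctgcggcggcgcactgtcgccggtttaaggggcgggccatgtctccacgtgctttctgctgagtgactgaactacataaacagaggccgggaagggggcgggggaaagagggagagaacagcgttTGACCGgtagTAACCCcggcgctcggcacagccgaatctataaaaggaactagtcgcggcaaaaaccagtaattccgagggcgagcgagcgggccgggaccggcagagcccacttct
Acsl3: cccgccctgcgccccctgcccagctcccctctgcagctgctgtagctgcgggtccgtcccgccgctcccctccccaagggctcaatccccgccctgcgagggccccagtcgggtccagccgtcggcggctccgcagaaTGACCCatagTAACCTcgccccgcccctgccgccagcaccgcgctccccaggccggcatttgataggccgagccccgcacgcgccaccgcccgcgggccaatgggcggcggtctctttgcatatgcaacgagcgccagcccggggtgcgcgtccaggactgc
Hmgcs1: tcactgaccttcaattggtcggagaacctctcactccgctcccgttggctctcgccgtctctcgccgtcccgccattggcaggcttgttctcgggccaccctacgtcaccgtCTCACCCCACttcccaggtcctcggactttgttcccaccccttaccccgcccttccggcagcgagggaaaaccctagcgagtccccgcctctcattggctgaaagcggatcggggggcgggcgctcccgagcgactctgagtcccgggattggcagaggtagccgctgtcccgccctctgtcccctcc
Nsdhl: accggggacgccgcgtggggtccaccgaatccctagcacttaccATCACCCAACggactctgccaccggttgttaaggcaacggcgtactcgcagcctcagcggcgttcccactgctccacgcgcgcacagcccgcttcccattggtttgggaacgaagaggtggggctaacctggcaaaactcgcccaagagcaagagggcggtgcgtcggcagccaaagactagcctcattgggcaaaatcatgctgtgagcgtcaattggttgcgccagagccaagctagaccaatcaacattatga
Dusp1: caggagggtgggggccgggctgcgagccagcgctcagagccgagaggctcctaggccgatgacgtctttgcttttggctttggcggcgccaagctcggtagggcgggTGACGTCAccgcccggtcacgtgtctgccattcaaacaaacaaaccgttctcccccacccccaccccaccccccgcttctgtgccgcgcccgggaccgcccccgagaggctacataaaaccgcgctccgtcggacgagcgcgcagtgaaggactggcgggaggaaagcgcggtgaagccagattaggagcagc

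Of 13 LXR target genes with a promoter window 0 held a DR4 or an SRE under these settings. Of 16 cholesterol synthesis genes 1 held a DR4 (Dhcr7) and 2 an SRE (Hmgcs1 and Nsdhl). A CRE was found in 4.24% of the windows of genes whose difference was negative and in 2.50% of those whose difference was positive. For a DR4 these shares were 1.80% and 1.62%, and for an SRE 1.80% and 1.55%. Over all windows, which include genes not tested, they were 1.79% (CRE), 3.02% (DR4) and 1.95% (SRE). The CRE was not among the elements planned, and no test was run. These matches describe letters in short windows and no binding, and a window without a match may still be bound.

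The response differed between the states for 3131 of 17166 genes (18.2%), 1475 in the positive direction (8.59%) and 1656 in the negative (9.65%), in edgeR's quasi-likelihood test with Benjamini-Hochberg adjustment. The difference was 2-fold or more for 572 of them, 332 positive and 240 negative. The 2 responses behind it were unequal in extent. In ES cells 55 genes changed, 53 of them upward (0.309%) and 2, Enpp2, which makes the signalling lipid lysophosphatidic acid, and the cyclin gene Ccnd2, downward. At day 17, 2961 genes rose (17.2%) and 3083 fell (18%). The median size of a response was 0.09 on the log2 scale in ES cells and 0.26 at day 17, so most called differences were changes present at day 17 and not called in ES cells. Of the 3131, 2987 had a call at day 17 alone, 10 in ES cells alone, 20 in both and 114 in neither. The ES count was 28 and 33 without replicate 1 or 2 of the control, 31 without replicate 1 of treated ES cells, and 164 with no filter on low counts.

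The 53 genes that rose in ES cells followed another pattern. The difference was negative for 24 of them: 10 rose less at day 17, 9 were not called there and 5 fell there. For 5 it was positive (Scd1, Insig1, Fads2, Acsl3 and H2-Q10) and for 24 no difference was called. Against day 16 the differences of these 5 were all below 0, called for Insig1 (-0.31), Fads2 (-1.70) and Acsl3 (-0.50) and not for Scd1 (-0.34) or H2-Q10 (-0.60). Across the 55 genes called in ES cells the responses in both states had a Pearson correlation of 0.57 (Spearman 0.59), and across all 17166 tested genes of 0.02 (Spearman 0.08). These are descriptions over genes that share the same 8 libraries.

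**Figure D1:**
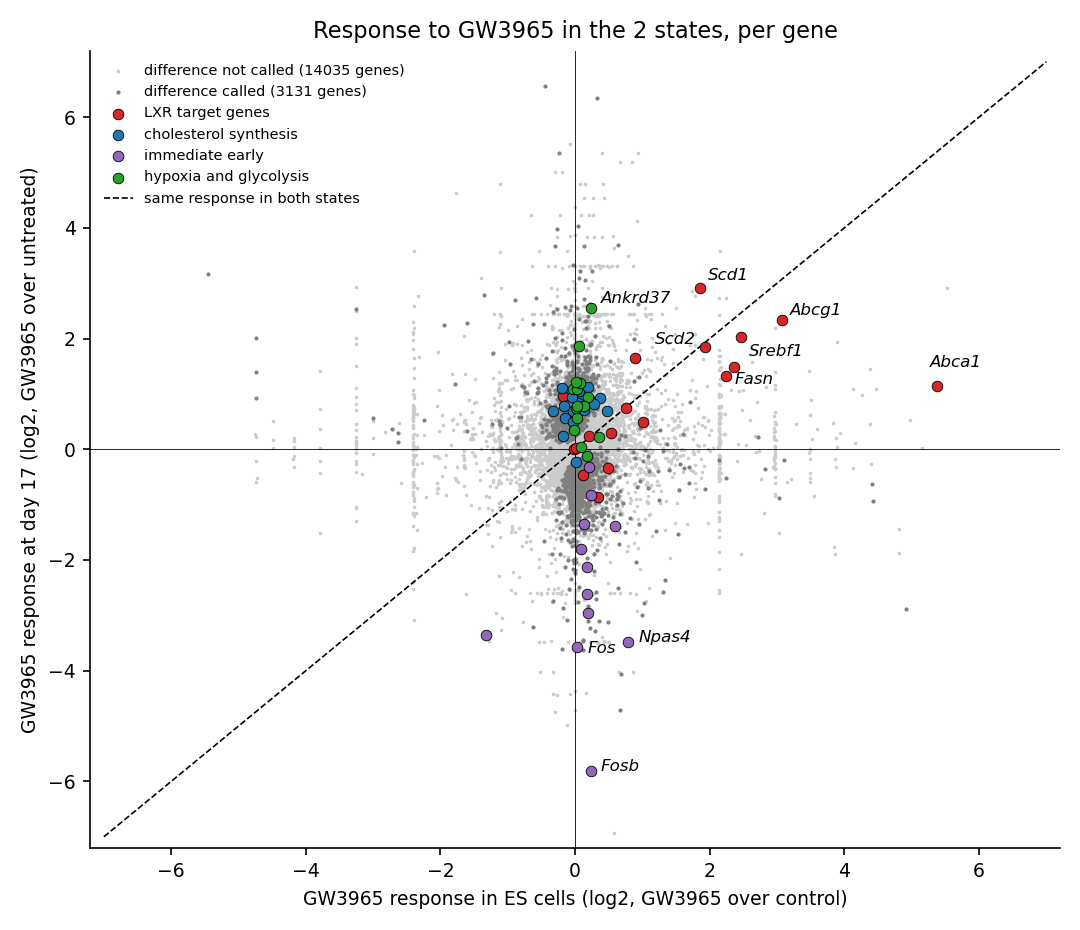
Response to GW3965 (log2, treated over untreated) in ES cells on the horizontal axis and at day 17 on the vertical axis, 1 point per tested gene, with 3131 genes called different in a darker shade and 4 gene groups in colour. The dashed line marks an equal response. LXR targets lie to the right, cholesterol synthesis genes above and immediate early genes below the middle of the plot, and vertical stripes are genes with no counts in an ES group.

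Many LXR target genes rose in both states, and more of their differences were negative than positive. Of 18 tested members the difference was negative for 8 and positive for 1 (Scd1), with a median of -0.33 against -0.0022 over all genes. Of the 8, 5 rose in both states and less at day 17, and 3 fell at day 17. In ES cells 10 rose and 0 fell, and at day 17, 9 rose and 3 (Lpl, Pltp and Arl4c) fell. Against day 16 the counts were also 8 and 1, and 6 members had the same sign under both references (Abca1, Abcg1, Mylip, Lpcat3, Fasn and Pltp).

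Abca1 encodes the membrane pump that loads cholesterol onto apolipoprotein particles (chromosome 4, 53030787 to 53159895, minus strand, GRCm38). It stood at 8.79 and 7.51 CPM in the control ES libraries and at 345 and 327 CPM with GW3965. At day 17 it stood at 155 and 153 CPM untreated and at 365 and 313 CPM treated. Untreated day 17 cultures already held far more Abca1 than untreated ES cells, and the treated libraries of both states overlapped. The mean rose from 8.15 ± 0.907 to 336 ± 12.4 CPM in ES cells (SD, n = 2, 41.4-fold) and from 154 ± 1.49 to 339 ± 36.4 CPM at day 17 (SD, n = 2, 2.2-fold). The difference was -4.24 ± 0.126 (SE, log2, 95% interval -4.50 to -3.97, adjusted p = 2.02e-14). Without ligand Abca1 was 18.99-fold higher at day 17 than in ES cells, while with ligand the levels differed by 0.01 ± 0.0744 (SE, log2, adjusted p = 0.884). In absolute terms the rise was 328 CPM in ES cells and 185 CPM at day 17. Untreated day 16 libraries held 92.6 and 86.9 CPM, and with these as the reference the difference was -3.45.

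Abcg1, which hands cholesterol to high-density lipoprotein, gave another combination of levels. It was at 23.2 and 23.8 CPM in control and 198 and 198 CPM in treated ES cells, and at 4.31 and 5.37 CPM in untreated and 24.6 and 23.3 CPM in treated day 17 libraries. Every day 17 library with ligand was close to ES cells without it. The rise was 8.43-fold in ES cells and 5.02-fold at day 17 (difference -0.75 ± 0.178, adjusted p = 0.0057), and the call was lost without replicate 2 of untreated day 17 (adjusted p = 0.0697). Mylip, a ubiquitin ligase that limits lipoprotein uptake, went from 10.9 and 9.56 to 51.5 and 53.5 CPM in ES cells and from 16.0 and 14.9 to 41.9 and 44.6 CPM at day 17. Its untreated level was thus higher and its treated level lower at day 17 (difference -0.88 ± 0.152, adjusted p = 0.000388). Srebf1, the transcription factor gene through which LXR drives lipid synthesis, went from 147 and 155 to 853 and 812 CPM in ES cells and from 88.1 and 79.4 to 350 and 337 CPM at day 17. It rose 5.51-fold and 4.09-fold, and the difference of -0.43 ± 0.163 was not called (adjusted p = 0.0755, 95% interval -0.77 to -0.09). It was called without a filter on low counts, in a fit of the 8 libraries alone, and with day 16 as reference (-1.14, adjusted p = 1.32e-05).

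The fatty acid enzymes among the targets responded unequally. Fasn, fatty acid synthase, was at 888 and 903 CPM in control and 4360 and 4113 CPM in treated ES cells, and at 261 and 239 CPM and 620 and 638 CPM at day 17. It rose 4.73-fold in ES cells and 2.52-fold at day 17, and all 4 day 17 libraries lay below every ES library (difference -0.91 ± 0.104, adjusted p = 5.63e-06). Acaca, which makes malonyl-CoA for Fasn, went from 80.4 and 81.1 to 194 and 193 CPM in ES cells and from 47.5 and 45.7 to 57.4 and 61.9 CPM at day 17. Its difference was -0.91 ± 0.088 (adjusted p = 7.62e-07), and 30.4% of its 50-base stretches also occur in another gene, so its counts are less certain. Lpcat3, which places polyunsaturated chains in phospholipids, went from 94.0 and 96.1 to 190 and 193 CPM and from 65.0 and 61.2 to 88.4 and 89.1 CPM. Its rise was smaller at day 17 (difference -0.52 ± 0.0791, adjusted p = 0.000116).

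Scd1 and Scd2, desaturases that make monounsaturated fatty acids, stood apart from that pattern. Scd1 was at 297 and 286 CPM in control and 1064 and 1040 CPM in treated ES cells, and at 48.7 and 46.5 CPM untreated and 291 and 429 CPM treated at day 17. The rise was 3.61-fold in ES cells and 7.55-fold at day 17 from a lower start, so that treated day 17 cultures reached the level of control ES cells (difference 1.07 ± 0.156, adjusted p = 7.66e-05). Against day 16, where Scd1 was at 134 and 119 CPM, the difference was -0.34 (adjusted p = 0.0839). Scd2 went from 1226 and 1187 to 4686 and 4509 CPM in ES cells and from 1156 and 1174 to 3968 and 4411 CPM at day 17. It rose 3.81-fold and 3.6-fold from nearly the same level (difference -0.08 ± 0.0766, adjusted p = 0.516, 95% interval -0.24 to 0.08), and against day 16 the difference was called (-0.46, adjusted p = 8.13e-05).

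The 3 members that fell at day 17 were Lpl, Arl4c and Pltp. Lpl, lipoprotein lipase, was at 39.9 and 40.9 CPM in control and 50.1 and 52.5 CPM in treated ES cells, with no call there (adjusted p = 0.719), and fell from 125 and 110 to 55.9 and 73.4 CPM at day 17 (difference -1.21 ± 0.188, adjusted p = 0.000146). Arl4c, a small GTPase linked to cholesterol transport, had a difference of -0.57 ± 0.102. Against day 16 the differences of Lpl (0.07, adjusted p = 0.83) and Arl4c (0.11, adjusted p = 0.463) were not called. Their negative differences were thus called only against untreated day 17. Pltp, phospholipid transfer protein, rose from 92.7 and 96.1 to 138 and 127 CPM in ES cells and fell from 66.0 and 66.7 to 57.2 and 48.2 CPM at day 17 (difference -0.82 ± 0.127, adjusted p = 0.000142, and -1.04 against day 16). Apoe, which carries lipid between brain cells, was at 340 to 423 CPM in the ES libraries and 140 to 195 CPM at day 17 and differed by 0.02 ± 0.173 (adjusted p = 0.97), while against day 16 a difference of 0.72 was called (adjusted p = 0.00255).

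**Figure D2:**
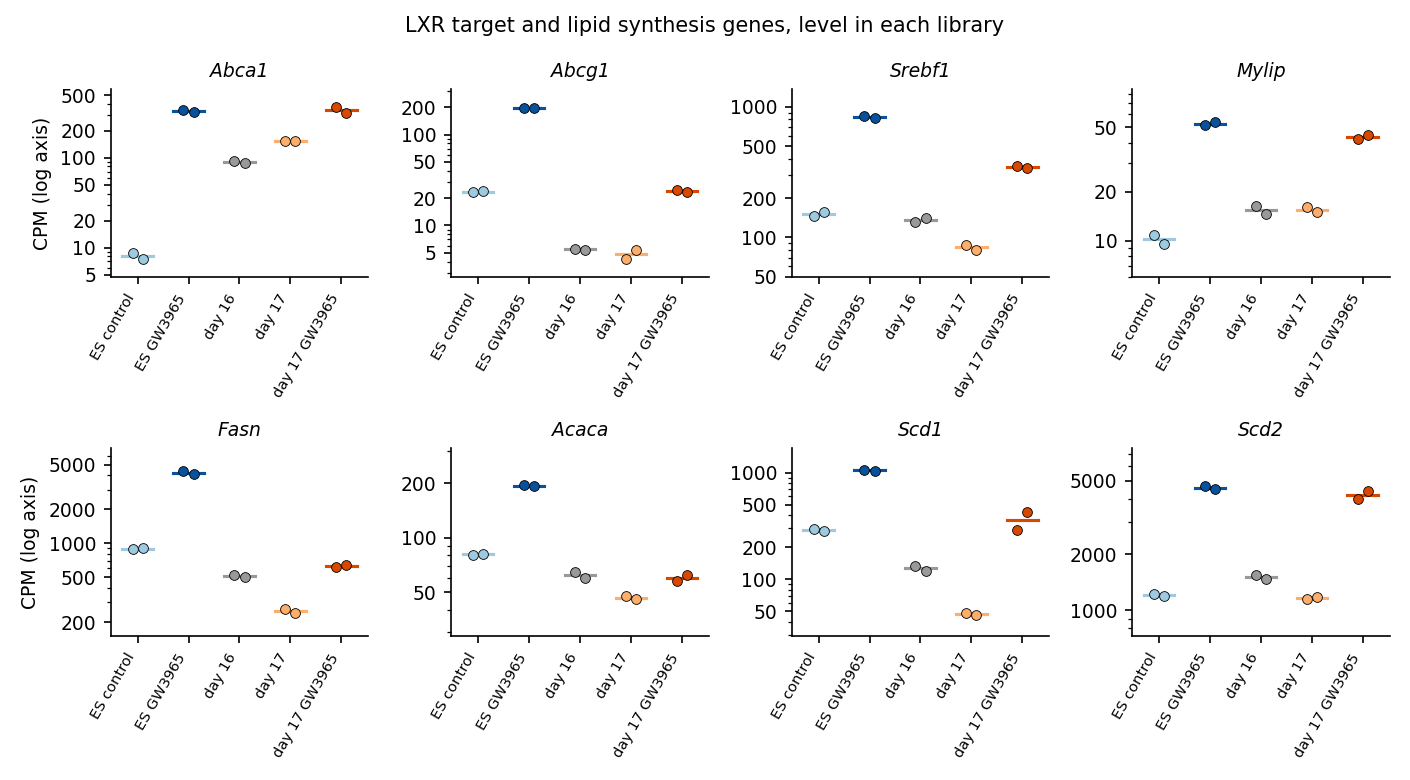
Level of 8 LXR target and lipid synthesis genes (CPM, log axis) in each library of 5 groups, with points for libraries and a line for the group mean of 2. Abca1 ends near 340 CPM in both treated groups from starts of 8.15 and 154 CPM, Fasn and Acaca rise less at day 17, and Scd1 rises more.

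No difference in response was called for the LXR and RXR genes against untreated day 17. Nr1h2, which encodes LXR beta, was at 70.7 to 81.8 CPM in the ES libraries and 38.0 to 49.6 CPM at day 17 (difference 0.14 ± 0.199, adjusted p = 0.703). Nr1h3, which encodes LXR alpha, was at 1.33 to 1.62 CPM and 0.233 to 1.03 CPM (difference 1.15 ± 0.548, adjusted p = 0.161), and was called without replicate 1 of untreated day 17 (adjusted p = 0.035). Rxra, their partner, was at 28.8 to 32.1 CPM in ES cells and 91.4 to 108 CPM at day 17 (difference 0.25 ± 0.117, adjusted p = 0.147). Against day 16 Rxra (0.68, adjusted p = 0.000117) and Rxrb (-0.28, adjusted p = 0.0161) were called and Nr1h2 and Nr1h3 were not. A p above the threshold does not show equal responses. Of 20 receptor and cofactor genes the difference was negative for 3 and positive for 0: Tbl1x (-0.50 ± 0.0977), part of the corepressor complex, and more weakly the corepressor Ncor1 (-0.29 ± 0.0815, lost in 5 of 15 alternative settings) and the coactivator Ncoa1 (-0.38 ± 0.126, lost in 7). Over all tested genes 8.59% of differences were positive and 9.65% negative, so 3 of 20 is a small count. Against day 16, 3 of the 20 were positive and 6 negative. Tbl1x (-0.54) and Ncor1 (-0.25) were called there too, while Ncoa1 was above 0 and not called (0.22).

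Cholesterol synthesis genes rose together at day 17 and, apart from Pmvk, did not pass the test in ES cells. Of 20 tested genes the difference was positive for 18 and negative for 0, with a median of 0.72. In ES cells 1 rose (Pmvk) and 0 fell, and at day 17, 19 rose and 1 fell (Ggps1). The differences not called were those of Pmvk (0.22), of the mevalonate steps, and Ggps1 (-0.25), of the branch that serves protein prenylation.

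Hmgcs1, which makes the HMG-CoA that enters the pathway, was at 773 and 769 CPM in control and 670 and 674 CPM in treated ES cells, and at 198 and 212 CPM untreated and 389 and 493 CPM treated at day 17. It rose 2.15-fold at day 17 (difference 1.30 ± 0.125, adjusted p = 6.81e-07), and every day 17 library stayed below every ES library. Sqle, squalene epoxidase, was at 192 and 193 and at 171 and 172 CPM in ES cells and at 60.6 and 61.4 and at 104 and 106 CPM at day 17 (difference 0.95 ± 0.0706, adjusted p = 2.98e-08). Nsdhl, a sterol dehydrogenase late in the pathway, was at 56.1 to 59.7 CPM in all ES libraries and rose from 21.1 and 20.1 to 38.8 and 49.2 CPM at day 17 (difference 1.09 ± 0.139). The promoters of Hmgcs1 and Nsdhl are those printed above with an SRE.

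Further called members ranged from 0.42 (Hsd17b7, lost in 6 of 15 alternative settings) to 1.01 (Idi1 and Fdps). Dhcr7, which acts late on the way to cholesterol, had a difference of 0.92 ± 0.106. Mvk (0.79), Fdft1 (0.72), Cyp51 (0.71), Mvd (0.68), Lss (0.56) and Sc5d (0.52) lay between. Of the same group Acat2, Fdft1, Fdps and Idi1 share 25.3 to 39.1% of their 50-base stretches with another gene.

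The untreated day 17 libraries were low in these genes beside those of day 16. The summed level of the group was 3110 to 3155 CPM in the 4 ES libraries, 2303 and 2191 CPM at untreated day 16, 920 and 955 CPM at untreated day 17 and 1509 and 1770 CPM at treated day 17. Of the 20 genes 19 were lower at untreated day 17 than at day 16 (median -1.36). Under the day 16 reference 1 difference was positive and 13 were negative (median -0.51), and 0 members were called with the same sign under both references. The direction for this group thus turned with the untreated day used.

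Some genes that regulate or take up cholesterol differed in response, in both directions. Insig1, the brake on SREBP, rose in both states, from 152 and 149 to 220 and 211 CPM in ES cells (1.44-fold) and from 38.0 and 41.0 to 112 and 126 CPM at day 17 (3.02-fold), and the rise was larger at day 17 (difference 1.07 ± 0.111, adjusted p = 1.61e-06). Stard4, a carrier of free cholesterol, had a difference of 1.12 ± 0.123, and Lrp2, a large uptake receptor, one of 0.61 ± 0.128. Srebf2, the master factor of the pathway, had one of 0.42 ± 0.132 (adjusted p = 0.0309, lost in 6 of 15 settings). Of 11 SREBP regulators 2 differences were positive and 1 negative (Rnf139, -0.42, lost in 5 settings), and of 16 uptake genes 4 were positive and 2 negative. Their medians were -0.07 and 0.12, against 0.72 for cholesterol synthesis genes. Over all tested genes 8.59% of differences were positive and 9.65% negative. Taken against day 16 the differences of Insig1 (-0.31), Srebf2 (-0.52) and Lrp2 (-0.48) were called with the opposite sign and that of Stard4 (0.18, adjusted p = 0.255) was not called. The counts there were 3 positive and 3 negative for the regulators and 1 and 5 for uptake.

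**Figure D3:**
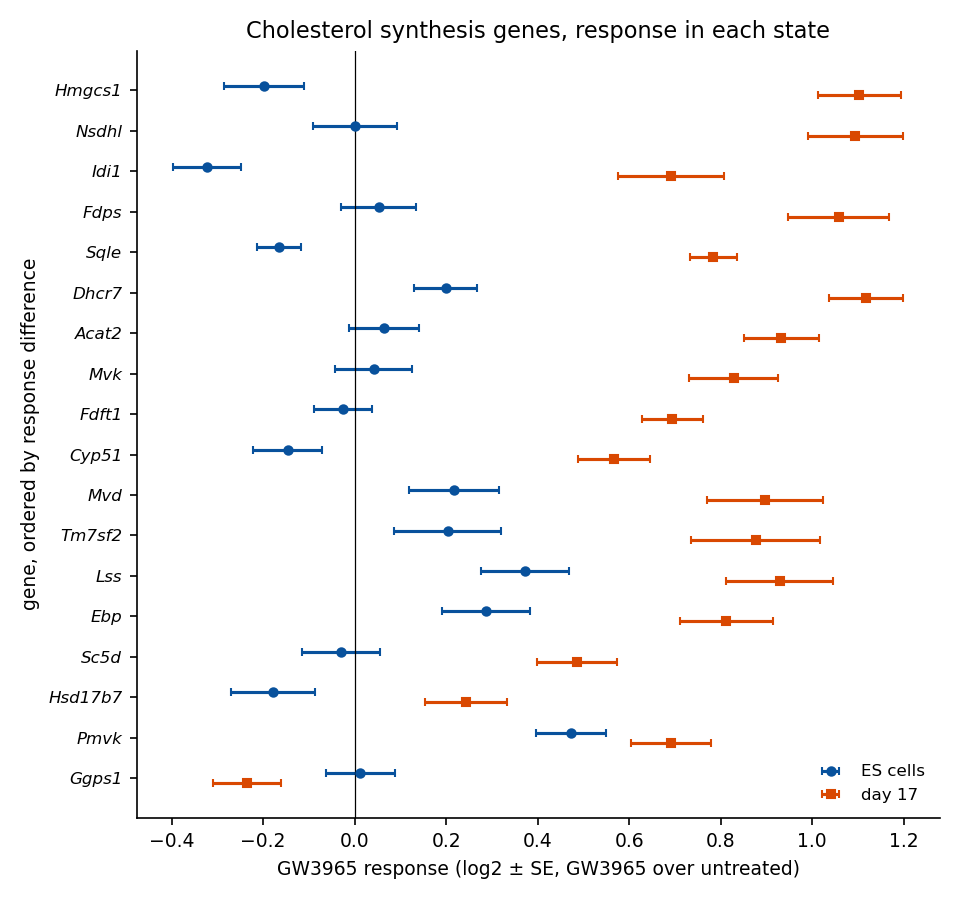
Response to GW3965 (log2, treated over untreated, bars are SE) of 18 of the 20 tested cholesterol synthesis genes in ES cells and at day 17. The ES responses lie between -0.32 (Idi1) and 0.47 (Pmvk), and those at day 17 lie above 0 for all of the plotted genes but Ggps1.

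The list of fatty acid synthesis genes shares Fasn with the LXR targets. Of its 11 genes 4 differences were negative (Fasn, Acaca, Mid1ip1 and Acss2) and 1 positive (Acacb, lost in 6 of 15 settings), with a median of -0.31. Against day 16, 5 were negative and 1 positive, and 3 held the same sign under both. Their summed level went from 2175 and 2191 to 6113 and 5845 CPM in ES cells and from 801 and 785 to 1249 and 1315 CPM at day 17, most of it from Fasn in treated ES cells (4360 and 4113 CPM). Mid1ip1, which promotes the assembly of acetyl-CoA carboxylase, rose from 40.9 and 42.8 to 87.6 and 84.2 CPM in ES cells and was at 75.3 and 65.5 CPM untreated and 65.1 and 74.1 CPM treated at day 17. The day 17 groups overlapped (difference -1.06 ± 0.164, adjusted p = 0.000144, and -0.16 against day 16, not called), and 20.9% of its 50-base stretches are shared. Acss2, which makes acetyl-CoA from acetate, had a difference of -0.42 that was lost in 10 settings.

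Among 15 desaturases and elongases 4 differences were positive (Scd1, Fads2, Elovl6 and Elovl2) and 2 negative (Elovl5 and Elovl4). Fads2, the first desaturase for polyunsaturated chains, went from 108 and 97.4 to 198 and 197 CPM in ES cells and from 35.9 and 31.4 to 82.0 and 85.0 CPM at day 17 (difference 0.36 ± 0.103, adjusted p = 0.0201, lost in 5 settings, and -1.70 against day 16). Elovl5, which lengthens those chains, went from 169 and 168 to 264 and 263 CPM and from 146 and 161 to 173 and 177 CPM, a smaller rise at day 17 (difference -0.45 ± 0.0793, adjusted p = 0.00044). With day 16 as reference 0 were positive and 8 negative. Among 26 phospholipid and acyl-CoA genes 3 differences were positive and 4 negative, and against day 16, 2 and 14. Over all tested genes 8.59% of differences were positive and 9.65% negative. Acsl3, an acyl-CoA synthetase of lipid droplets whose promoter is printed above with a DR4, rose from 255 and 267 to 483 and 477 CPM in ES cells and from 59.7 and 59.0 to 126 and 153 CPM at day 17. Its difference of 0.36 ± 0.113 (adjusted p = 0.0338) was lost in 8 settings and was -0.50 against day 16 (adjusted p = 0.00131). Lpin1, a phosphatidate phosphatase, rose from 76.1 and 78.0 to 126 and 131 CPM in ES cells and changed less at day 17, from 30.1 and 27.9 to 32.3 and 36.1 CPM (difference -0.50 ± 0.108, adjusted p = 0.00261).

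The next counts are read against the shares over all tested genes, 8.59% positive and 9.65% negative. Of 14 apolipoprotein and lipid transfer genes 1 difference was positive and 3 negative, Lpl and Pltp among them (2 and 1 against day 16). Of 12 other ABC transporters for sterols and lipids 0 differed, against day 16 none positive and 5 negative. Of 10 oxysterol enzyme genes 2 were positive and 1 negative (2 and 3 against day 16). PPAR target genes, many of which burn fatty acids, had 0 positive and 4 negative differences of 18 (2 and 5 against day 16). Acot2, a mitochondrial thioesterase, was at 10.3 to 11.4 CPM in ES cells and fell from 75.1 and 71.6 to 16.7 and 14.3 CPM at day 17 (difference -2.24 ± 0.162, adjusted p = 2.21e-08), with 18.4 CPM or less at day 16 and no call against it (-0.23). Its 50-base stretches are shared with another gene for 27.7%.

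Immediate early genes, which neurons and other cells switch on within minutes of a stimulus, fell at day 17 and were not called in ES cells. Of 12 genes 11 differences were negative and 0 positive, with a median of -2.17. Fos was at 8.88 and 8.14 CPM in control and 9.25 and 7.89 CPM in treated ES cells, and at 252 and 277 CPM untreated and 19.7 and 24.6 CPM treated at day 17 (difference -3.61 ± 0.217, adjusted p = 1.24e-09). Egr1 was at 37.9 to 46.3 CPM in ES cells and fell from 486 and 506 to 82.8 and 78.4 CPM at day 17 (difference -2.80 ± 0.144, adjusted p = 2.06e-10). Fosb, a partner of Jun proteins, fell from 67.6 and 69.0 to 1.38 and 1.05 CPM at day 17 and was at 0.514 to 1.01 CPM in ES cells (difference -6.04 ± 0.549, adjusted p = 3.61e-07). For these 3 genes untreated day 17 stood far above each of the other groups. Npas4 and Arc, genes of neuronal activity, had differences of -4.27 ± 0.566 and -2.32 ± 0.252, and the nuclear receptor Nr4a1, another gene of this kind, one of -2.96 ± 0.161. Dusp1, a phosphatase of MAP kinases whose promoter is printed above with a CRE, was at 33.9 to 38.6 CPM in ES cells and fell from 40.8 and 42.4 to 11 and 13 CPM at day 17 (difference -1.88 ± 0.17, adjusted p = 2.68e-07). Unlike Fos, it stood little above the ES libraries in untreated day 17. Egr3 was not called (-2.03, adjusted p = 0.149).

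At untreated day 16 the same genes were low. Fos stood at 20.1 and 19.1 CPM and Egr1 at 65.6 and 67.0 CPM, close to treated day 17. All 12 genes were higher at untreated day 17 than at day 16 (median 2.29), and their summed level was 223 to 265 CPM in ES cells, 300 and 308 CPM at day 16, 1373 and 1376 CPM at untreated day 17 and 372 and 366 CPM at treated day 17. With day 16 as reference 2 differences were positive and 0 negative. The negative differences were thus called only against untreated day 17, and their cause was not tested.

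Stress response genes, most of them targets of ATF4 in the integrated stress response, shared this profile. Of 16 genes 12 differences were negative and 2 positive (Ddit4 and Sdf2l1), with a median of -0.83. Trib3, a pseudokinase induced by stress, was at 9.41 to 11.8 CPM in ES cells and fell from 216 and 203 to 14.7 and 19.4 CPM at day 17 (difference -3.74 ± 0.242, adjusted p = 3.23e-09). Atf5 fell from 476 and 442 to 63.8 and 71.1 CPM at day 17 and was at 11.1 to 12.8 CPM in ES cells (difference -2.81 ± 0.208, adjusted p = 2.95e-08). Untreated day 16 held 11.9 and 14.9 CPM of Trib3 and 46.5 and 49.2 CPM of Atf5. Asns (-1.70) and Chac1 (-1.67) also differed. Their untreated levels were higher at day 17 than at day 16 for 14 of the 16 genes, and with day 16 as reference 3 differences were positive and 1 negative.

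Hypoxia and glycolysis genes and cell cycle genes rose at day 17 and gave 0 rises in ES cells. Of 16 hypoxia and glycolysis genes 11 differences were positive and 0 negative, with a median of 0.75. Bnip3, a mitophagy receptor induced by low oxygen, was at 213 to 233 CPM in ES cells and rose from 37.7 and 39.1 to 130 and 150 CPM at day 17 (difference 1.80 ± 0.174, adjusted p = 6.91e-07), with 47.2% of its 50-base stretches shared. Pdk1, which keeps pyruvate from the mitochondria, had a difference of 1.21 ± 0.171. Slc16a3, the lactate exporter, is outside that list and among the largest differences of expressed genes. It was at 436 and 461 and at 533 and 496 CPM in ES cells, and at 25.4 and 23.1 CPM untreated and 122 and 135 CPM treated at day 17 (difference 2.20 ± 0.219, adjusted p = 1.01e-06). At day 16 it was at 138 and 133 CPM, as in treated day 17. Hif3a, a hypoxia-inducible factor also outside that list, was at 140 to 148 CPM in ES cells and rose from 18.7 and 19.2 to 62.7 and 63.1 CPM (difference 1.73 ± 0.0949, adjusted p = 3.14e-10). Against day 16 its difference was smaller, positive and called (0.49, adjusted p = 0.000207). Those of Bnip3 (0.15), Pdk1 (0.16) and Slc16a3 (-0.27) were not called there.

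Of 16 cell cycle genes 14 differences were positive and 0 negative (median 0.71), with Mcm2 and E2f1 not called. Mki67, a marker of dividing cells, was at 616 and 776 and at 702 and 777 CPM in ES cells and rose from 174 and 173 to 387 and 403 CPM at day 17 (difference 1.10 ± 0.149, adjusted p = 3.55e-05). Bub1, of the spindle checkpoint, was at 399 to 431 CPM in ES cells and rose from 13.3 and 13.8 to 33.1 and 33.6 CPM (difference 1.35 ± 0.124, adjusted p = 3.7e-07). In all 4 day 17 libraries both genes stayed below every ES library. Of the cell cycle genes 15, and of the hypoxia and glycolysis genes 14, were lower at untreated day 17 than at day 16. With day 16 as reference 1 and 0 differences were positive and 7 and 9 negative.

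**Figure D4:**
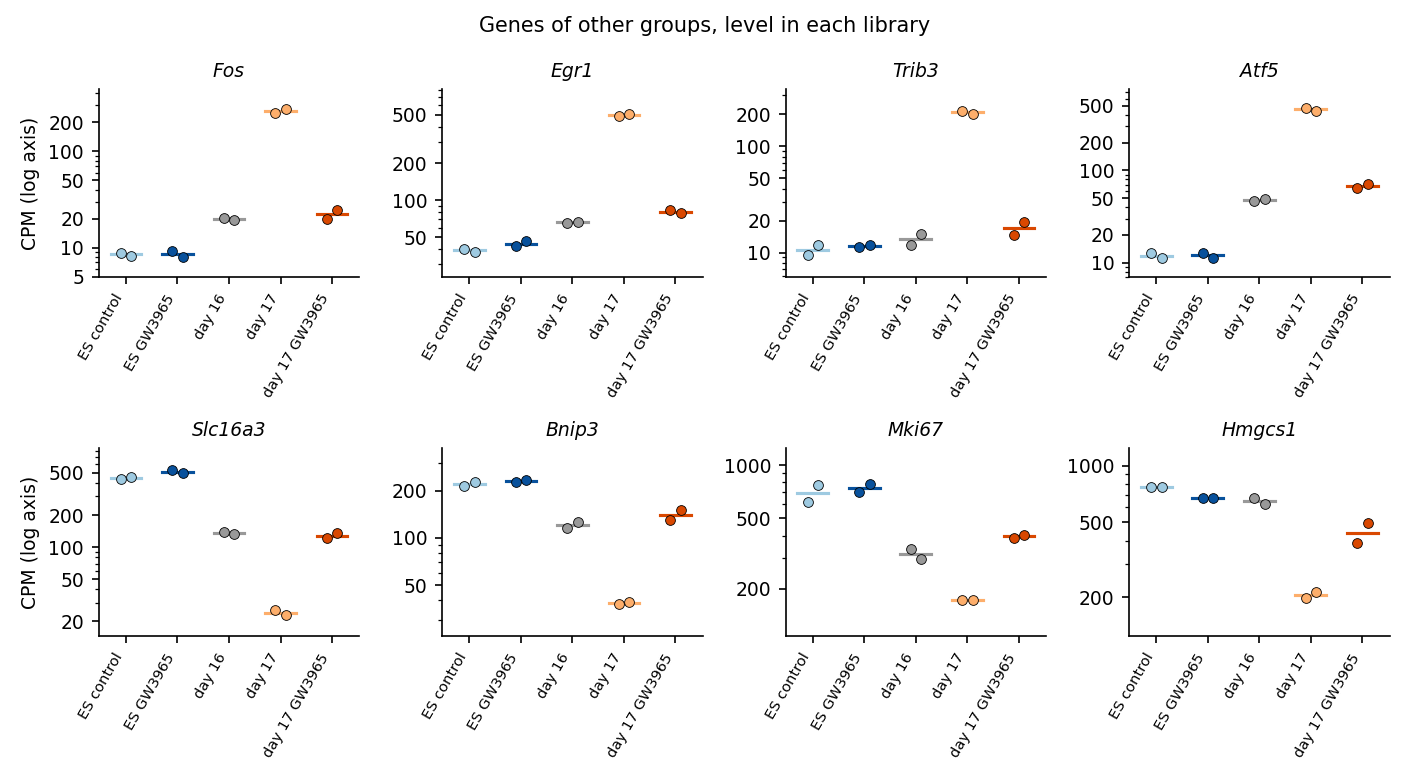
Level of 8 genes (CPM, log axis) in each library of 5 groups, with points for libraries and a line for the group mean of 2. Fos, Egr1, Trib3 and Atf5 are high at untreated day 17 and Slc16a3, Bnip3, Mki67 and Hmgcs1 are low there beside both untreated day 16 and treated day 17.

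Counts for markers of cell types are read against the 18.2% called over all genes. Those against day 16 are read against 6605 of 17166 genes (2937 positive and 3668 negative). Of 20 pan-neuronal genes 2 differences were positive and 2 negative, and against day 16, 1 and 10. The negative ones were Snap25 (-0.68, lost in 6 of 15 alternative settings) and Rab3a (-0.63, lost in 4). Both were also called negative against day 16 (-1.11 and -1.10). Tubb3, neuronal tubulin, was at 22.7 to 27.6 CPM in ES cells and rose from 177 and 152 to 287 and 339 CPM at day 17 (difference 0.78 ± 0.16, adjusted p = 0.00172), with 386 and 366 CPM at day 16, against which its difference was called with the opposite sign (-0.41, adjusted p = 0.0469). Of 14 transmitter genes 0 were positive and 3 negative (0 and 2 against day 16). Grin1, the shared NMDA receptor subunit, was at 10.8 to 16.1 CPM in ES cells and fell from 23.0 and 20.8 to 12.8 and 14.5 CPM at day 17, where the groups do not overlap (difference -1.05 ± 0.181, adjusted p = 0.000361). With 30.1 and 30.4 CPM at day 16, its difference had the same sign under that reference (-1.52). Gad1, which makes GABA, had a difference of -0.52 ± 0.128, lost without replicate 2 of the ES control (adjusted p = 0.0566).

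Of 12 neural progenitor genes 2 differences were positive and 1 negative, and against day 16, 1 and 3. Hes5, a Notch target, was at 0 to 0.396 CPM in ES cells and rose from 3.93 and 3.67 to 14.5 and 21.5 CPM at day 17 (difference 4.19 ± 0.816, adjusted p = 0.00117), with 19.4 and 13.8 CPM at day 16. So close to 0 in ES cells the size is loose: it was 8.55 without replicate 1 of treated ES cells and 2.08 against day 16. Of 11 astrocyte genes 0 differed (3 positive and 2 negative against day 16), and of 11 oligodendrocyte genes 2 were positive, among them Cnp (2 positive and 0 negative against day 16). Cnp, an enzyme of myelinating cells, was at 31.3 to 33.7 CPM in ES cells and went from 64.9 and 49.5 to 88.8 and 134 CPM at day 17 (difference 0.94 ± 0.199, adjusted p = 0.00234), with replicate 2 of treated day 17 the highest and a difference of 0.61 without it. Of 10 mesenchyme genes 1 was negative (5 against day 16). This was Fn1, fibronectin, at 1788 to 1923 CPM in ES cells and falling from 1830 and 2188 to 960 and 959 CPM at day 17 (difference -0.99 ± 0.114, adjusted p = 5.63e-06). Of 20 pluripotency genes 3 were positive and 4 negative, and of 21 genes of primed epiblast, streak and mesoderm 5 positive and 0 negative. Against day 16 these counts were 13 and 1 for pluripotency and 3 and 3 for the other list. Otx2, of primed epiblast and forebrain, was at 101 to 114 CPM in ES cells and rose from 5.21 and 4.02 to 10.2 and 17.7 CPM at day 17 (difference 1.63 ± 0.301, adjusted p = 0.00075, and 0.55 against day 16, not called). Of 18 retinoid target genes 1 was positive and 3 negative (2 and 4 against day 16). Dhrs3, which returns retinal to retinol, fell from 31.0 and 39.7 to 17.6 and 9.76 CPM at day 17 and was at 10.2 to 13.8 CPM in ES cells (difference -1.63 ± 0.306, adjusted p = 0.000846, and -0.54 against day 16, not called).

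**Figure D5:**
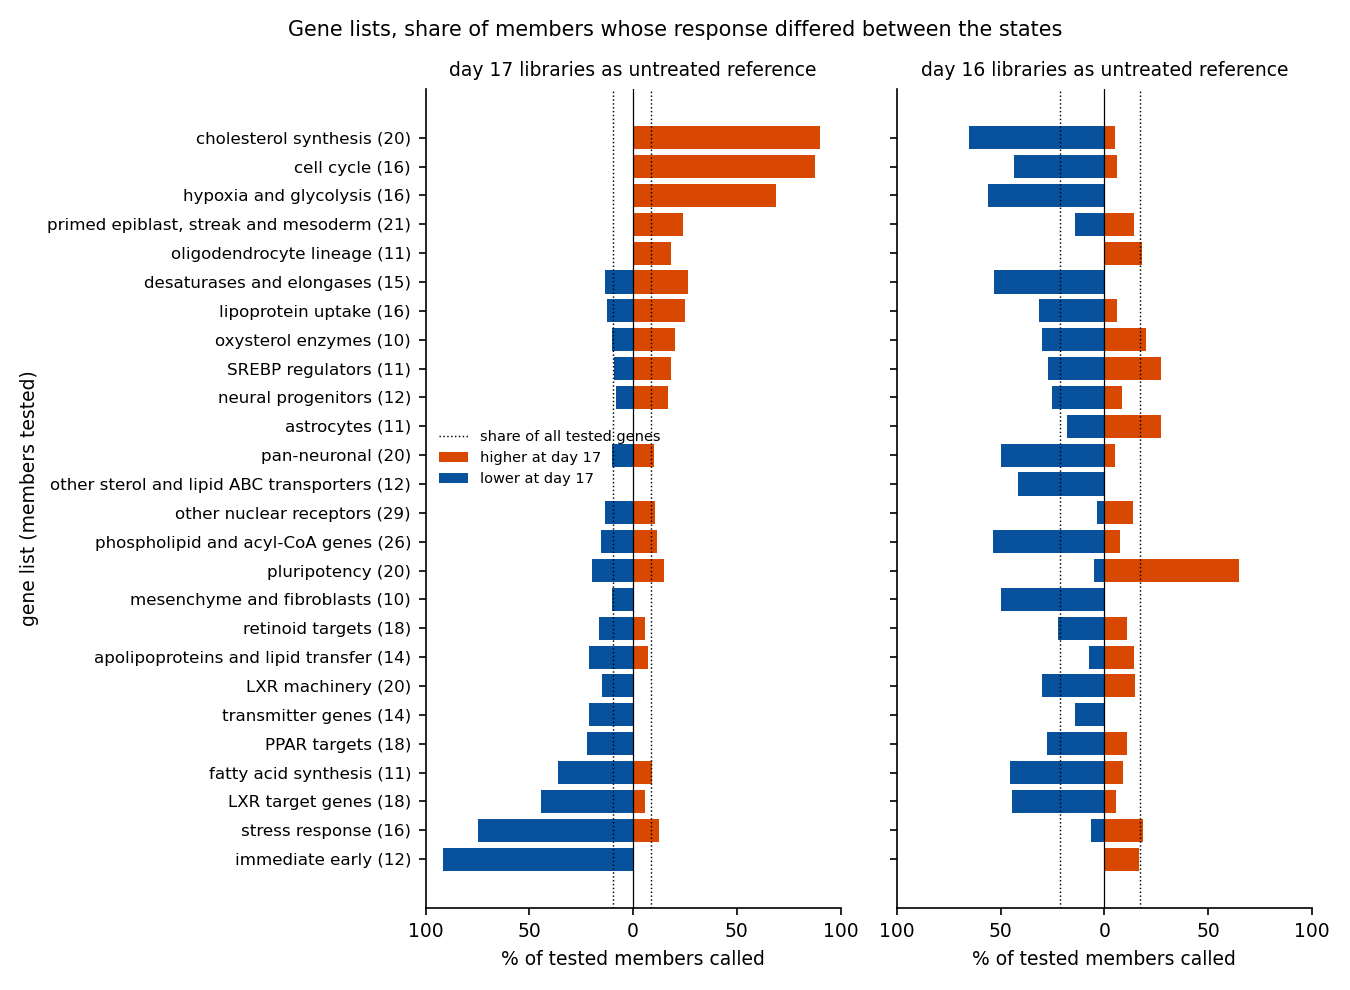
Percent of the tested members of each gene list (10 or more tested) whose response difference was called positive (higher at day 17) or negative (lower). Lower means a smaller rise or a larger fall. The reference is untreated day 17 on the left and untreated day 16 on the right. Dotted lines give the share over all tested genes. Cholesterol synthesis, cell cycle, and hypoxia and glycolysis move from higher on the left to lower on the right, while LXR targets are lower in both.

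The 12 largest differences in each direction included genes near 0 in a state. Mixl1, a streak gene at 12.8 to 20.4 CPM in ES cells, had 0 counts in both untreated day 17 libraries and 0.536 and 0.379 CPM with GW3965, so its difference is not sized here. C1qtnf3, Cdh26 and Hoxa3 had 0 counts in both treated ES libraries, and Asic4 had 0 in both ES controls, and theirs are not sized either. In the negative direction genes expressed in both states stood beside Abca1 and Trib3. Steap1, a membrane protein of the metalloreductase family, was at 14.6 to 17.9 CPM in ES cells and at 17.3 and 14.8 CPM in untreated day 17, and fell to 1.61 and 1.30 CPM with GW3965 (difference -3.58 ± 0.271, adjusted p = 3.64e-08). Day 16 held 3.21 and 2.09 CPM of it. Cyb5r1, a cytochrome reductase, was at 152 to 164 CPM in ES cells and fell from 178 and 166 to 27.2 and 32.4 CPM (difference -2.44 ± 0.121, adjusted p = 1.53e-10), with 39.7 and 38.8 CPM at day 16. Apobr, a receptor for apolipoprotein B, fell from 49.6 and 38.5 to 3.39 and 5.59 CPM at day 17 and was at 3.67 to 4.89 CPM in ES cells (difference -3.59 ± 0.289, adjusted p = 7.17e-08). It was at 2.10 and 2.64 CPM at day 16, and its difference against day 16 was above 0 and not called (0.61, adjusted p = 0.141).

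Of the 55 genes called in ES cells 41 were also called at day 17, where 6044 of 17166 were called in all. Of the 41, 35 rose in both, 1 (Enpp2) fell in both and 5 rose in ES cells and fell at day 17. Of the 35, 15 differed in size (10 smaller and 5 larger at day 17) and 20 were not called different. Beside Scd2 and Srebf1 these 20 held Plekhd1, at 11.3 and 12.7 to 24.1 and 21.5 CPM in ES cells and 8.11 and 7.99 to 16.6 and 15.4 CPM at day 17 (difference 0.05 ± 0.197), and the ATP-citrate lyase gene Acly (0.12 ± 0.0929). The 5 with opposite changes were Pltp, Aplp1, Pag1, Brd1 and Farp1. Pag1, an adaptor of Src family kinases, rose from 8.53 and 8.89 to 12.5 and 13.7 CPM in ES cells and fell from 97.5 and 101 to 80.1 and 71.0 CPM at day 17 (difference -0.97 ± 0.152, adjusted p = 0.000155). Aplp1, an amyloid precursor-like protein of neurons, rose from 59.2 and 59.3 to 85.8 and 76.1 CPM and fell from 83.6 and 92.3 to 71.5 and 77 CPM (difference -0.70 ± 0.107, adjusted p = 0.000132). Each of the falls at day 17 was under 1.5-fold. Against day 16 the differences of Pag1 (0.016) and Brd1 (-0.14) were not called, and treated day 17 was above untreated day 16 for both (0.60 and 0.26), so their falls turn with the untreated day.

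Some differences held whichever untreated day was the reference. Among genes at 5 CPM or more in a group of each state, 1005 were called with the same sign under both, 388 positive and 617 negative. Their day 17 library ratios also had to lie on one side of all ES ratios. Over all 17166 tested genes 1131 kept their sign, 456 positive and 675 negative. Both references share the treated day 17 and all ES libraries, so part of this overlap is built in. This set was defined after the values were seen, and its largest members are given here as a description. Abca1 led the negative side. Of the 12 largest, 3 were aminoacyl-tRNA synthetase genes, whose enzymes charge tRNAs for protein synthesis. Other genes of that family were not counted, so these 3 describe themselves only. Cars was at 116 to 123 CPM in ES cells and went from 61.9 and 56.0 to 24.1 and 27.0 CPM at day 17, with 82.6 and 83.8 CPM at day 16 (differences -1.16 ± 0.123 and -1.66). Mars was at 187 to 188 CPM in ES cells and went from 104 and 97.3 to 45.5 and 49.0 CPM (-1.09 ± 0.092 and -1.11). Lars was at 347 to 356 CPM and went from 156 and 153 to 71.4 and 77.6 CPM (-1.04 ± 0.0919 and -1.18). For all 3 the treated day 17 libraries were the lowest of these groups. On the positive side Ppp1r3c, which targets a phosphatase to glycogen, was at 18.3 to 23.9 CPM in ES cells and rose from 48.0 and 44.3 to 88.6 and 99.8 CPM at day 17, with 50.1 and 54.4 CPM at day 16 (1.08 with day 16 as reference, adjusted p = 0.000131). Nqo1, a quinone reductase of the oxidative stress response, was at 9.28 to 11.9 CPM in ES cells and went from 8.58 and 7.64 to 19.8 and 13.4 CPM (1.29 ± 0.296 and 1.14).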

How the data were processed

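The authors deposited 18 files of raw read counts per gene symbol. Each ended in 5 HTSeq summary rows that were kept out of library sizes and tests. Reads with no gene were 42.14 to 43.36% of the day 17 files and 62.77 to 65.92% of the others. With reads of more than 1 alignment left out, they were 63.4 to 63.61% of the day 17 files. Per the submitters' processing notes, mm10, TopHat2 2.0.7, Cufflinks 2.0.2, HTSeq 0.6.0 and Cuffdiff 2.0.2 were used. Their order, the strand setting and the annotation are not given in the sources used here, so overlapping and antisense genes cannot be separated.

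Genes passing filterByExpr were kept, libraries were scaled by TMM, and 1 quasi-likelihood model over all 18 libraries and 9 groups was fitted with edgeR 4.0.16 (R 4.3.3, common biological variation 6.47%). The contrast was (day 17 GW3965 minus day 17) minus (ES 24h GW3965 minus ES control), two-sided, with Benjamini-Hochberg adjustment over 17166 genes and a threshold of 0.05. Each SE was taken as the absolute log2 change divided by the square root of the test's F value. The 95% intervals were built from these SE. Both are approximate, most of all for genes near 0 counts in a group. Replicates of a group differed by more than counting noise, with a chi-square of 2.80 to 6.89 per gene in the 4 groups. Log2 CPM and means are on the TMM scale, and genes with 0 counts in a group were not sized.

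Named genes were the 12 largest differences in each direction at 5 CPM or more in a group, also among genes expressed in both states, 19 genes always reported, called members of the lipid lists, up to 3 of each other list, and genes called in both states (145 in all, some left out of the text). Outside that rule Asns, Cars, Ccnd2, Chac1, Ddit4, Dusp1, E2f1, Egr3, Enpp2, Ggps1, Lars, Mars, Mcm2, Nqo1, Pmvk, Ppp1r3c and Sdf2l1 were chosen after their values were seen. The members, lists and tests were chosen with earlier results of these data known. Positions come from GRCm38, and 98.87% of tested symbols matched. Shared 50-base stretches were counted over transcripts. DESeq2 1.42.0 and limma 3.58.1 served as alternatives, and the code was tested on simulated data. Results for a few genes are not reported here.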

Additional observations from a re-analysis of the deposited data

Results flagged for a closer look

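The difference between the states was itself tested, and 3131 genes passed. Of these, 5 rose with GW3965 in ES cells and fell at day 17, both past the threshold: Pltp (difference -0.82), Aplp1 (-0.70), Pag1 (-0.97), Brd1 (-0.60) and Farp1 (-0.51). With untreated day 16 in place of untreated day 17, Pag1 (0.60) and Brd1 (0.26) were higher in treated day 17 and their differences (0.016 and -0.14) were not called. Brd1, a chromatin scaffold protein, was at 136 and 133 CPM in control and 181 and 174 CPM in treated ES cells and at 119 and 121 CPM and 104 and 104 CPM at day 17. Farp1, a guanine exchange factor of dendrites, went from 71.9 and 69.6 to 90.1 and 87.0 CPM in ES cells and from 144 and 137 to 129 and 119 CPM at day 17. Outside the gene counts, the summary rows gave 29.04 M and 23.18 M reads with more than 1 alignment in untreated day 17 and 28.61 M and 29.52 M in treated day 17, and 0 in the other 14 libraries.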

How the results depend on the processing

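The count of genes with a different response was 2880 to 3418 under no filter or a stricter one, with the Wald test or the size factors of DESeq2, with limma-voom, or when the 8 libraries were fitted alone, and 2224 to 2490 without 1 library (53.5% positive without replicate 1 of treated ES cells, 47.1% with all). Replicate numbers did not pair the libraries (36 correlations between groups, -0.096 to 0.0691), and with a replicate block the count was 2978. With untreated day 16 as reference it was 6605, a setting added after seeing the data. The ES count was 164 with no filter, 51 with the block and 28 to 62 without 1 library, and the day 17 count 5733 to 6316, 5914 with the block and 4335 to 5885 without 1 library. On a log2 scale of mean CPM plus 1 the correlations between the responses were 0.0892 over all genes, 0.617 over those called in ES cells and 0.114 over those called in either state. With 1 mismatch fewer allowed, 0.25% of windows held a DR4 and 0.0913% an SRE. Of 134 named calls 79 held in all 15 alternative settings. Differences not called that changed sign without 1 library were those of Apoe (-0.11 to 0.17), Scd3 (-0.18 to 0.50) and Plekhd1 (-0.034 to 0.146). The cause of these shifts was not tested, beyond fewer libraries in the fit. Depth limits genes near 0 counts in a state, whose differences depend on the prior count.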
